A study of Mus musculus with 26 samples.

Results

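RNA precipitated from the retina was set against RNA precipitated from the optic nerve proper (ONP), the myelinated stretch of nerve behind the eye. The comparison takes the 6 retina IP libraries (immunoprecipitated RNA) and the 7 ONP IP libraries, 13 of the 26 libraries in the series, chosen by their tissue and IP labels. Both groups came from untreated mice on day 0, as poly(A) RNA from freshly removed eyes, made into libraries with a Smart-Seq HT ultra-low input kit. The labels name retinal astrocytes as the source. The tag on which RNA was precipitated, what placed it in astrocytes, and the strain, age and sex of the mice are not given in the sources used here. ONP replicates 1 to 6 formed batch 1, and ONP replicate 7, an adapter library prepared and sequenced alongside the retina, formed batch 2 with all retina libraries. Region and batch are therefore told apart only through ONP replicate 7 and the matching optic nerve head (ONH) library, and ONP replicate 7 is given beside most results. Ratios of counts pool it with the other ONP libraries. The labels do not say whether libraries came from separate animals, and p-values then cover only the spread among libraries, which may be technical.

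Astrocytes of the retina enter it from the optic nerve during development, spread over its inner surface in the layer of ganglion cell axons, and lay the template that growing retinal vessels follow. They stay in a tissue without oligodendrocytes in the mouse, beside ganglion cells and Müller glia. Astrocytes of the nerve proper lie between myelinated axons, oligodendrocytes, their precursors and microglia, take up potassium and glutamate, and surround vessels with endfeet. RNA precipitated from either tissue can also hold RNA of these neighbours.

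Levels are CPM, counts scaled to library size by TMM, given as lowest, median and highest library of a group, and TMM scaling assumes that most genes do not differ. Differences are log2 fold changes of retina IP over ONP IP from edgeR's quasi-likelihood test. The test was fitted to the 20 IP libraries of the series with batch as a term. Each difference has a Benjamini-Hochberg adjusted p over 16355 genes and an approximate standard error (SE). This SE is the absolute log2 difference divided by the square root of the test's F statistic, not an error estimated by the fit. After "then" follow the same difference without the batch term and the difference of retina IP from ONP replicate 7 alone, in that order. Of the 16355 genes, 2116 (12.9%) were higher in retina IP and 3255 (19.9%) lower at an adjusted p under 0.05, 32.8% in either direction. Counts of list members are to be read against these shares, and no list was tested as a whole. Without the batch term 4225 genes (25.8%) were higher and 4626 (28.3%) lower. The median difference over all genes was -0.10, then -0.01 and 0.16. All retina libraries lay above all ONP libraries in 11.8% of genes and below them in 16.5%. A stricter set had the same sign in the 3 estimates and no overlap between the groups, and held 1251 genes higher (7.65%) and 2217 lower (13.6%). Leaving out ONP replicate 7 left 567 genes higher and 1588 lower of 16264 tested. List counts given without replicate 7 are to be read against these. That fit kept 554 of the 2116 higher calls and 1490 of the 3255 lower calls. Leaving out ONH replicate 7 instead kept 1466 of the higher and 2632 of the lower calls. Among all called genes 29 had the opposite sign against ONP replicate 7 alone, and 116 without the batch term.

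Total counts ran from 14703195 to 24966236 in retina IP and from 14051088 to 27431026 in ONP IP. Counts of genes on chromosome Y were 702 or more in every batch 1 library and 0 or 1 in every batch 2 library, so male tissue was found in batch 1 alone and sex cannot be told apart from batch. The retina IP libraries were not alike. The summed level of the 28-gene astrocyte list was 76427, 91178 and 99386 CPM in replicates 2, 3 and 4, and 19777, 20929 and 28607 CPM in replicates 1, 5 and 6. The same sum was 53576 to 113165 CPM in ONP replicates 1 to 6, 51156 CPM in replicate 7 and 9399.6, 13830.5 and 50253 CPM (lowest, median and highest) in retina input, which is RNA taken before precipitation. Retina IP replicates 1, 5 and 6 thus lay inside the input range for the astrocyte list, and replicates 2, 3 and 4 above it. With replicates 2, 3 and 4 as the only retina libraries 2066 genes were higher and 2876 lower, and with replicates 1, 5 and 6 the counts were 3045 and 4415. Bulk RNA cannot tell fewer cells of a type from less RNA per cell.

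RNA of oligodendrocytes, which make the myelin of the nerve, was abundant in ONP IP and close to 0 in retina IP. In the oligodendrocyte list 0 of 18 tested members were higher in retina IP and 18 lower (median log2 difference -10.16, then -10.08 and -10.15), or 0 and 18 without replicate 7. Mbp, a main protein of myelin, was at 7.86, 19.8 and 63.2 CPM in retina IP and 17541, 43738 and 56521 CPM in ONP IP, with 43738 CPM in replicate 7. For Mbp the log2 difference was -10.29 (SE 0.651, adjusted p = 6.75e-10), then -10.52 and -10.40. The groups did not overlap for Mbp, and ONP replicate 5 was the lowest of its group. Sox10, the transcription factor of the oligodendrocyte lineage, had medians of 0.106 and 137 CPM, with 214 CPM in replicate 7 (log2 difference -10.96, SE 0.482, adjusted p = 1.72e-11, then -10.38 and -10.88). Mog, a protein of the outer myelin surface, was lower as well (medians 0.271 and 1685 CPM, replicate 7 1365 CPM, log2 difference -10.79, SE 0.767, adjusted p = 3.26e-09, then -11.26 and -10.84). The summed oligodendrocyte list reached 38393 to 131801 CPM in ONP replicates 1 to 6 and 94747 CPM in replicate 7, against 90.3 to 238 CPM in retina IP. It was larger than the astrocyte list sum in 6 of the 7 ONP libraries, all but replicate 5 (102391 against 71837 CPM at the medians of replicates 1 to 6), so ONP IP did not hold astrocyte RNA alone. Its part in the differences of genes that astrocytes and oligodendrocytes share was not tested.

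Genes of oligodendrocyte precursors and microglia were also lower in retina IP. In the precursor list 0 of 10 tested members were higher in retina IP and 9 lower (median log2 difference -8.54, then -8.24 and -8.68), or 0 and 8 without replicate 7. Cspg4, the NG2 proteoglycan of precursors and also of pericytes, was at 0, 0.918 and 1.29 CPM in retina IP and 29.7, 36.4 and 49.2 CPM in ONP IP, with 49.2 CPM in replicate 7. For Cspg4 the log2 difference was -5.66 (SE 0.585, adjusted p = 5.06e-07), then -5.68 and -5.80. Gpr17, a receptor of precursors on their way to differentiate, gave 18037 counts over the ONP IP libraries and 3 in the other group, 6438 times as many per library size (interval 2202 to 31219.5). For microglia, the resident phagocytes, 0 of 15 tested members were higher in retina IP and 15 lower (median log2 difference -4.74, then -4.42 and -4.91), or 0 and 13 without replicate 7. C1qa, a chain of complement C1q, was at 4.43, 8.18 and 10.7 CPM in retina IP and 19.4, 204 and 309 CPM in ONP IP, with 309 CPM in replicate 7. For C1qa the log2 difference was -4.94 (SE 0.588, adjusted p = 2.92e-06), then -4.55 and -5.13. Tmem119, a surface protein of microglia, was at 1.81, 7.66 and 9.56 CPM in retina IP and 22.4, 194 and 276 CPM in ONP IP, with 194 CPM in replicate 7. For Tmem119 the log2 difference was -4.59 (SE 0.678, adjusted p = 3.66e-05), then -4.78 and -4.71. ONP replicate 5 held the lowest summed microglia level of its group, 503 CPM, and the highest retina IP library 270.2 CPM. Ctss, a lysosomal protease of microglia, was lower as well (medians 28.1 and 1095 CPM, replicate 7 1293 CPM, log2 difference -5.04, SE 0.689, adjusted p = 1.56e-05, then -4.90 and -5.19).

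Most tested members of the fibroblast and vessel lists were lower in retina IP, while the summed vessel lists overlapped between the groups. In the fibroblast list 0 of 13 tested members were higher in retina IP and 11 lower (median log2 difference -5.41, then -5.80 and -2.36), or 0 and 9 without replicate 7. Col1a1, a chain of fibrillar collagen, was at 0, 0.152 and 0.448 CPM in retina IP and 11.5, 13.9 and 135 CPM in ONP IP, with 11.5 CPM in replicate 7 (log2 difference -6.45, SE 0.91, adjusted p = 2.23e-05, then -7.22 and -5.54), and ONP replicate 1 stood far above the other ONP libraries. Among endothelial genes 1 of 13 tested members were higher in retina IP and 8 lower (median log2 difference -2.95, then -3.54 and -2.74), or 0 and 2 without replicate 7. Cldn5, a tight junction protein of endothelium, was at 0.0489, 1.18 and 5.44 CPM in retina IP and 4.6, 38.4 and 58.6 CPM in ONP IP, with 42.5 CPM in replicate 7 (log2 difference -4.09, SE 0.985, adjusted p = 0.00343, then -4.08 and -4.27), so that the groups overlapped. Vwf, a clotting factor carrier made by endothelium, had medians of 0.314 and 24.2 CPM (log2 difference -5.74, SE 0.981, adjusted p = 1.69e-04, then -5.29 and -5.47). Kdr, a receptor for VEGF that in the retina is also found in neurons and glia, went the other way, at 37.1, 89.1 and 167 CPM in retina IP and 1.35, 9.5 and 14.7 CPM in ONP IP, with 9.5 CPM in replicate 7 (log2 difference 3.06, SE 1.06, adjusted p = 0.0323, then 3.45 and 3.57), and its call ended without ONH replicate 7 (adjusted p = 0.0952). In the pericyte and smooth muscle list 1 of 11 tested members were higher in retina IP and 7 lower (median log2 difference -2.80, then -2.41 and -1.71), or 0 and 2 without replicate 7. Kcnj8, a potassium channel subunit of pericytes, was among the lower genes (medians 0.354 and 34.3 CPM, replicate 7 34.4 CPM, log2 difference -5.96, SE 0.525, adjusted p = 5.79e-08, then -6.26 and -6.05). Rgs5, a regulator of G protein signalling common in pericytes, was higher, at 113, 406 and 817 CPM in retina IP and 6.62, 17.4 and 38.5 CPM in ONP IP, with 26.3 CPM in replicate 7 (log2 difference 4.57, SE 1.19, adjusted p = 0.00598, then 4.62 and 4.33), and its adjusted p without ONH replicate 7 was 0.0627. The summed endothelial list was 53.8 to 282 CPM in retina IP and 41.9 to 279 CPM in ONP replicates 1 to 6, with 203 CPM in replicate 7. For the pericyte and smooth muscle list the sum was 141 to 896 CPM (median 450.3) in retina IP and 332 to 702 CPM in ONP replicates 1 to 6, with 273 CPM in replicate 7. The groups overlapped for this sum too, with retina replicates 2, 3 and 4 above all ONP libraries. The fibroblast sum was 38.7 to 163 CPM in retina IP, below the 455 to 2217 CPM of ONP replicates 1 to 6 and the 305 CPM of replicate 7. Without ONP replicate 7 the adjusted p rose above 0.05 for Cldn5 (adjusted p = 0.123), Kdr (0.263) and Rgs5 (0.0541).

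Retina IP in turn carried RNA of retinal neurons, in amounts that differed between its libraries. In the ganglion cell list 13 of 13 tested members were higher in retina IP and 0 lower (median log2 difference 5.65, then 7.51 and 7.49), or 8 and 0 without replicate 7. Nefl, a neurofilament subunit of long axons, was at 385, 1474 and 2377 CPM in retina IP and 2.35, 4.77 and 12.3 CPM in ONP IP, with 6.98 CPM in replicate 7 (log2 difference 6.40, SE 1, adjusted p = 6.82e-05, then 7.95 and 7.83), and the input median was 1607 CPM. Slc17a6, the vesicular glutamate transporter of ganglion cells, was at 50.9, 221 and 357 CPM in retina IP and 0, 0.2 and 0.337 CPM in ONP IP, with 0.216 CPM in replicate 7 (log2 difference 6.95, SE 1.55, adjusted p = 0.00193, then 10.25 and 10.11), with an input median of 231 CPM. Without ONH replicate 7 the Slc17a6 difference was 9.95. Retina IP and ONP IP did not overlap for either gene. Summed over the list, retina replicates 1, 5 and 6 held 6174, 5763 and 6084 CPM and replicates 2, 3 and 4 held 2335, 1844 and 1094 CPM, against 4650.4 to 11166 CPM in input. Replicates 1, 5 and 6 lay inside the input range and replicates 2, 3 and 4 below every input library. The libraries with more astrocyte list RNA thus held less ganglion cell list RNA. Among amacrine and horizontal cell genes 5 of 10 tested members were higher in retina IP and 0 lower (median log2 difference 4.42, then 8.61 and 8.42), or 1 and 0 without replicate 7. Calb2, the calcium buffer calretinin, was at 597, 2495 and 4779 CPM in retina IP and 2, 4.56 and 7.12 CPM in ONP IP, with 7.12 CPM in replicate 7 (log2 difference 6.56, SE 1.14, adjusted p = 2e-04, then 9.20 and 8.69), with 2740.5 CPM at the input median. The summed amacrine and horizontal cell list was 897 to 1321 CPM in retina replicates 2, 3 and 4 and 5600.1 to 6291 CPM in 1, 5 and 6, below and above the input range of 1636 to 5421 CPM. In the bipolar cell list 4 of 10 tested members were higher in retina IP and 0 lower (median log2 difference 2.31, then 4.80 and 3.59), or 0 and 0 without replicate 7. Its median sum was 103 CPM after precipitation and 174 CPM before it. The calls of Slc17a6 (adjusted p = 0.0761) ended when ONP replicate 7 was left out.

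Rod and cone genes depended on which ONP and ONH libraries entered the fit. In the rod list 0 of 15 tested members were higher in retina IP and 0 lower (median log2 difference -0.45, then 3.46 and 1.23), or 0 and 1 without replicate 7; without the batch term 11 of 15 were higher. ONP replicate 7 lay above all other ONP libraries for 15 of 15 rod genes and 7 of 7 cone genes, against 27.1% of all genes tested. Its rod list sum was 798 CPM, inside the retina IP range of 774 to 3238 CPM, while ONP replicates 1 to 6 held 31.6 to 122 CPM. The median rod list sum of retina IP was 1288 CPM, and that of input 3568 CPM. Gngt2, a cone transducin subunit, was the cone gene called, and it was lower in retina IP (medians 2.08 and 5.12 CPM, replicate 7 15.3 CPM, log2 difference -3.73, SE 0.662, adjusted p = 2.4e-04, then -1.45 and -2.53). Its call ended in edgeR without the batch term (adjusted p = 0.0895). The groups overlapped, the lowest ONP library being at 1.645 CPM, and replicate 7 stood above the other ONP libraries (nearest 7.225 CPM).

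Müller glia span the retina and share many genes with astrocytes. In the Müller glia list 5 of 8 tested members were higher in retina IP and 1 lower (median log2 difference 2.61, then 2.43 and 3.66), or 2 and 1 without replicate 7. Rlbp1, a carrier of retinoids in Müller glia and pigment epithelium, was at 458, 1591 and 2766 CPM in retina IP and 65, 112 and 183 CPM in ONP IP, with 74 CPM in replicate 7. For Rlbp1 the log2 difference was 3.46 (SE 0.775, adjusted p = 0.00195), then 3.71 and 4.65. Every retina library exceeded every ONP library, and the retina IP median was above the input median of 454 CPM. Dkk3, a secreted protein of the Dickkopf family abundant in Müller glia, was at 1534, 2970.2 and 4059 CPM in retina IP and 291, 579 and 1101 CPM in ONP IP, with 291 CPM in replicate 7 (log2 difference 3.42, SE 0.484, adjusted p = 2.3e-05, then 2.14 and 3.51), with 956 CPM at the input median. Crym, a thyroid hormone binding protein, was at 47.6, 58.5 and 151 CPM in retina IP and 0, 0.561 and 1.44 CPM in ONP IP, with 1.44 CPM in replicate 7 (log2 difference 5.75, SE 1.13, adjusted p = 6.3e-04, then 6.67 and 5.87), below its input median of 97.3 CPM. The summed list was 6225, 6513 and 6975 CPM in retina replicates 2, 3 and 4, and 2629, 2203 and 4264 CPM in 1, 5 and 6. It was 946 to 1626 CPM in ONP replicates 1 to 6, 743 CPM in replicate 7 and 1815 CPM at the input median, with an input maximum of 3303 CPM. Retina replicates 2, 3 and 4 thus held more RNA of the Müller glia list as well as of the astrocyte list. How far Müller glia RNA enters the differences of other glial genes was not tested. Among smaller lists, pigment epithelium and melanocyte genes had 1 higher and 1 lower of 11 tested, lens genes 0 and 4 of 9, and Schwann cell genes 2 and 0 of 4. Without ONP replicate 7 these counts were 0 and 1, 0 and 0, and 1 and 0. Ngfr, the low-affinity neurotrophin receptor, was one of the Schwann list genes (medians 12.8 and 1.52 CPM, replicate 7 0.288 CPM, log2 difference 5.47, SE 0.685, adjusted p = 5.46e-06, then 3.48 and 6.03). Rdh5, a retinol dehydrogenase of pigment epithelium, was lower in retina IP (medians 2.68 and 44.1 CPM, replicate 7 42.5 CPM, log2 difference -5.11, SE 0.597, adjusted p = 2.37e-06, then -4.35 and -3.68). Leaving out ONP replicate 7 ended the call for Rlbp1 (adjusted p = 0.0835).

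**Figure D1:**
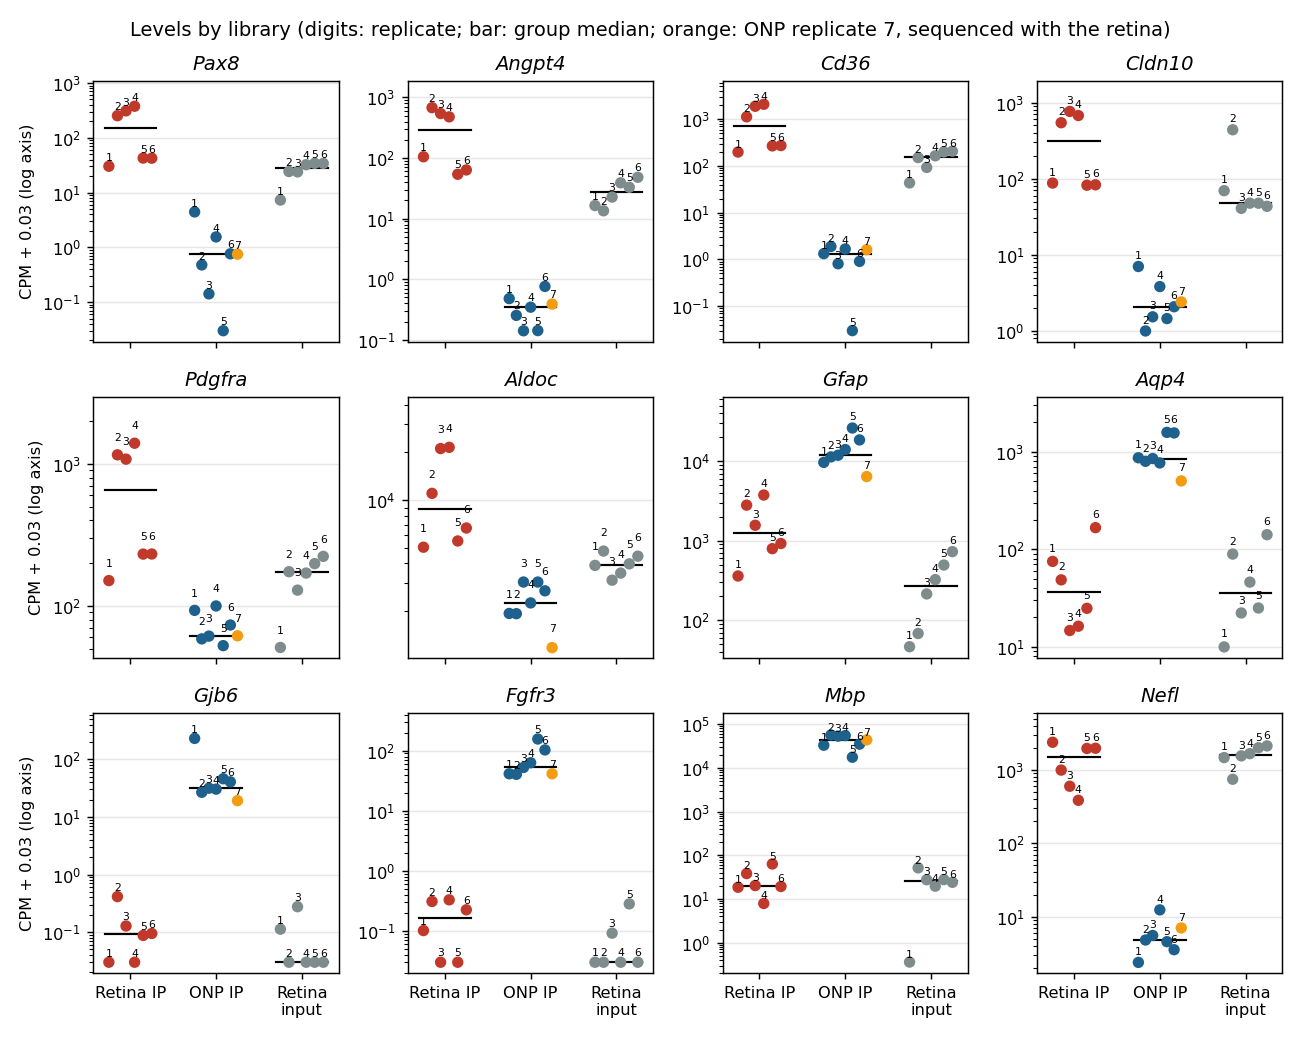
Each panel gives the level of a gene in every library as CPM + 0.03 on a log axis, for retina IP (red), ONP IP (blue, with replicate 7 in orange) and retina input (grey), digits naming the replicate and bars the group median. Retina IP replicates 2, 3 and 4 were the high ones for Pax8 and Angpt4 and the low ones for Nefl, while ONP replicate 7 stayed with the other ONP libraries for Pax8, Angpt4, Cd36, Mbp and Nefl.

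Transcription factors of the optic cup and of the eye field, the embryonic field that forms the eye, were mostly higher in retina IP. In that list 12 of 19 tested members were higher in retina IP and 2 lower (median log2 difference 2.33, then 1.77 and 2.40), or 5 and 1 without replicate 7. The paired-box factor Pax8 (ENSMUSG00000026976, mm10 chromosome 2, 24420560 to 24475599) was at 30.2, 148 and 376 CPM in retina IP and 0, 0.72 and 4.39 CPM in ONP IP, with 0.72 CPM in replicate 7. For Pax8 the log2 difference was 8.57 (SE 1.89, adjusted p = 0.00172), then 7.28 and 8.18. Every retina library lay above every ONP library, and with retina replicates 2, 3 and 4 alone the difference was 9.55, with 1, 5 and 6 alone 6.34. Tbx3, a T-box factor of dorsal retina, was at 36.1, 64.8 and 138 CPM in retina IP and 0.0745, 1.54 and 1.83 CPM in ONP IP, with 0.144 CPM in replicate 7. For Tbx3 the log2 difference was 6.85 (SE 1.11, adjusted p = 9.74e-05), then 6.13 and 9.19. Vax2, a homeobox factor of ventral retina, was at 77.4, 100.3 and 113 CPM in retina IP and 1.05, 1.61 and 3.17 CPM in ONP IP, with 3.17 CPM in replicate 7. For Vax2 the log2 difference was 3.65 (SE 0.606, adjusted p = 1.25e-04), then 5.67 and 5.18. Replicate 7 was the highest ONP library for Vax2 and still far below the retina. Pax6, a master factor of eye development, was at 161, 394 and 638 CPM in retina IP and 7.08, 11.3 and 28.3 CPM in ONP IP, with 11.3 CPM in replicate 7 (log2 difference 4.23, SE 0.731, adjusted p = 1.9e-04, then 4.92 and 5.37), with an input median of 553 CPM. Six6, a homeobox factor of the eye field, had medians of 89.7 and 23.8 CPM (log2 difference 2.33, SE 0.388, adjusted p = 1.31e-04, then 1.69 and 2.42). Rax, an eye-field factor kept in Müller glia, was higher as well (medians 81.4 and 3.25 CPM, replicate 7 6.04 CPM, log2 difference 3.30, SE 1.03, adjusted p = 0.0188, then 5.06 and 4.37), though not with retina replicates 1, 5 and 6 alone (adjusted p = 0.115). Vax2, Six6 and Pax6 were at or near their input levels, with input medians of 99.6 and 94 CPM for the first pair. No call held without ONP replicate 7 for Rax (adjusted p = 0.247).

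The factors lower in retina IP were nuclear receptors of the COUP-TF family. Nr2f2 was at 6.21, 9.23 and 10.3 CPM in retina IP and 20.2, 32.2 and 41.5 CPM in ONP IP, with 35.3 CPM in replicate 7 (log2 difference -1.78, SE 0.222, adjusted p = 5.12e-06, then -1.83 and -1.75), with no overlap. Nr2f1 was at 5.7, 9.64 and 15.4 CPM in retina IP and 14.8, 24 and 48.2 CPM in ONP IP, with 48.2 CPM in replicate 7 (log2 difference -1.71, SE 0.384, adjusted p = 0.00201, then -1.44 and -2.02), with an overlap at the edges. Pax2, which marks optic stalk and the astrocytes that derive from it, did not pass the test (log2 difference 2.51, SE 0.976, adjusted p = 0.054, then 1.77 and 2.27). Its levels were 0.534, 3.83 and 12.2 CPM in retina IP and 0.556, 1.15 and 2.41 CPM in ONP IP, with 1.15 CPM in replicate 7. DESeq2 called Pax2 higher (adjusted p = 0.0124), as did edgeR without the batch term (0.0123) and with retina replicates 2, 3 and 4 alone (3.35, adjusted p = 0.00522). With replicates 1, 5 and 6 alone it was at 0.93 (adjusted p = 0.371). In the list of glial transcription factors 2 of 25 tested members were higher in retina IP and 9 lower (median log2 difference -0.87, then -0.78 and -0.98), or 1 and 6 without replicate 7. Olig2 and Sox10, of the oligodendrocyte lineage, were among the lower genes (medians 0.0244 and 104 CPM, replicate 7 104 CPM for Olig2). Zbtb20, a zinc finger factor that promotes astrocyte formation, was at 51.1, 88.9 and 119.6 CPM in retina IP and 227, 279 and 365 CPM in ONP IP, with 361 CPM in replicate 7. For Zbtb20 the log2 difference was -1.70 (SE 0.298, adjusted p = 2.22e-04), then -1.75 and -1.83. Nfix, of the nuclear factor I family that switches on glial genes, and Id4, an inhibitor of basic helix-loop-helix factors, were lower, with retina medians of 35.7 and 51.5 CPM and ONP medians of 136 and 357 CPM (log2 difference -1.83, SE 0.485, adjusted p = 0.00677, then -1.81 and -2.03 for Nfix, log2 difference -2.30, SE 0.663, adjusted p = 0.0119, then -2.53 and -2.50 for Id4). Etv5, an ETS factor downstream of FGF receptors, was higher, at 82.6, 243 and 632 CPM in retina IP and 41.6, 58.2 and 75.5 CPM in ONP IP, with 41.6 CPM in replicate 7. For Etv5 the log2 difference was 3.05 (SE 0.68, adjusted p = 0.00188), then 2.38 and 3.08. Sox9, a factor of most astrocytes, did not differ past the threshold, at 51.9, 161 and 492 CPM in retina IP and 111, 156 and 345 CPM in ONP IP, with 262 CPM in replicate 7 (log2 difference -0.09, SE 0.654, adjusted p = 0.935, then 0.08 and -0.10), and its sign turned without the batch term. With retina replicates 1, 5 and 6 alone Sox9 was called lower (-1.78, adjusted p = 0.00189), and with 2, 3 and 4 alone it was at 0.77 (adjusted p = 0.22). In the fit lacking ONP replicate 7, Nr2f1 (adjusted p = 0.454), Zbtb20 (0.0897), Nfix (0.37) and Id4 (0.341) no longer passed.

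Astrocyte genes divided into a group nearly missing from retina IP, a group lower, and a few that were higher. In the astrocyte list 2 of 28 tested members were higher in retina IP and 13 lower (median log2 difference -1.10, then -1.84 and -1.21), or 1 and 7 without replicate 7. With retina replicates 2, 3 and 4 alone the counts were 7 higher and 11 lower with a median of -0.29, and with replicates 1, 5 and 6 alone 2 and 21 with a median of -2.25. Aqp4, the water channel of endfeet, was at 14.6, 36.6 and 166 CPM in retina IP and 502, 851 and 1580 CPM in ONP IP, with 502 CPM in replicate 7. For Aqp4 the log2 difference was -2.93 (SE 0.636, adjusted p = 0.00151), then -4.07 and -2.92. In retina IP Aqp4 was near its input median of 35.4 CPM. Gja1, the gap junction protein connexin 43, was at 15.6, 65.3 and 155 CPM in retina IP and 494, 764 and 1568 CPM in ONP IP, with 494 CPM in replicate 7. For Gja1 the log2 difference was -2.49 (SE 0.582, adjusted p = 0.00271), then -3.54 and -2.46. Gfap, the intermediate filament of astrocytes, was at 361, 1245 and 3759 CPM in retina IP and 6419, 11889 and 26131 CPM in ONP IP, with 6419 CPM in replicate 7. For Gfap the log2 difference was -1.55 (SE 0.589, adjusted p = 0.0487), then -3.02 and -1.66. Retina and ONP libraries did not overlap for Aqp4, Gja1 or Gfap, but ONP replicate 7 was the lowest ONP library for each of them. The call for Gfap was close to the threshold and ended in 16 of the 20 fits that left out a library. With retina replicates 2, 3 and 4 alone the Gfap difference was -0.78 (adjusted p = 0.233), and with 1, 5 and 6 alone -2.84. Vim, an intermediate filament of immature and reactive astrocytes, was at 72.5, 195 and 379 CPM in retina IP and 771, 1479 and 3539 CPM in ONP IP, with 1079.7 CPM in replicate 7. For Vim the log2 difference was -2.16 (SE 0.532, adjusted p = 0.00397), then -3.05 and -2.17. Slc1a2, the glutamate transporter GLT-1, was at 19.4, 47.7 and 60.7 CPM in retina IP and 112, 155 and 264 CPM in ONP IP, with 178 CPM in replicate 7. For Slc1a2 the log2 difference was -2.25 (SE 0.425, adjusted p = 4.5e-04), then -2.04 and -1.84. Dropping ONP replicate 7 raised the adjusted p above 0.05 for Aqp4 (adjusted p = 0.0624), Gja1 (0.101), Gfap (0.529) and Vim (0.148).

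Gjb6 and Fgfr3 were under 1 CPM in every retina library, IP and input, and so was Acsbg1 in all but retina IP replicate 3. Gjb6, the gap junction protein connexin 30, was at 0, 0.0612 and 0.383 CPM in retina IP and 19.1, 31.5 and 231 CPM in ONP IP, with 19.1 CPM in replicate 7 (log2 difference -7.98, SE 0.861, adjusted p = 9.01e-07, then -8.98 and -7.16), and its input median was 0 CPM. Fgfr3, a receptor for FGF, was at 0, 0.133 and 0.299 CPM in retina IP and 40.4, 52.6 and 157 CPM in ONP IP, with 41.3 CPM in replicate 7. For Fgfr3 the log2 difference was -7.94 (SE 0.628, adjusted p = 1.31e-08), then -8.86 and -7.88. Acsbg1, an acyl-CoA synthetase of the bubblegum family, was at 0, 0.119 and 5.47 CPM in retina IP and 137, 304 and 694 CPM in ONP IP, with 137 CPM in replicate 7 (log2 difference -6.99, SE 1.01, adjusted p = 2.78e-05, then -8.32 and -6.68), with retina replicate 3 far above the other retina libraries. Hepacam, an adhesion molecule of astrocyte contacts, was at 0.586, 3.33 and 8.61 CPM in retina IP and 322, 377 and 512 CPM in ONP IP, with 322 CPM in replicate 7. For Hepacam the log2 difference was -6.06 (SE 0.591, adjusted p = 2.25e-07), then -6.65 and -6.13. Retina replicates 2, 3 and 4 had the largest retina IP sums of both the astrocyte list and the Müller glia list. With only these retina libraries the differences were -7.23 for Gjb6, -7.40 for Fgfr3 and -5.52 for Hepacam. Ntsr2, a low-affinity neurotensin receptor, had medians of 6.49 and 390.4 CPM (log2 difference -4.84, SE 0.641, adjusted p = 1.05e-05, then -5.38 and -4.99). Fabp7, the brain fatty acid binding protein, had 0.778 and 69.2 CPM (log2 difference -5.17, SE 0.858, adjusted p = 1.24e-04, then -4.90 and -5.47).

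Glul and Aldoc were the astrocyte list genes higher in retina IP. Glul, glutamine synthetase, was at 1610.5, 2883 and 4162 CPM in retina IP and 229, 679 and 881 CPM in ONP IP, with 881 CPM in replicate 7. For Glul the log2 difference was 1.66 (SE 0.46, adjusted p = 0.00904), then 2.17 and 1.92. Aldoc, the brain form of the glycolytic enzyme aldolase, was at 5061, 8869 and 21547 CPM in retina IP and 1179, 2256 and 3055 CPM in ONP IP, with 1179 CPM in replicate 7. For Aldoc the log2 difference was 3.39 (SE 0.585, adjusted p = 1.82e-04), then 2.39 and 3.58. Retina IP lay above all ONP libraries for both, and above the input medians of 1015 and 3932 CPM. Slc1a3, the glutamate transporter GLAST, was not called, at 309, 1096 and 2481 CPM in retina IP and 391, 880.1 and 2271 CPM in ONP IP, with 391 CPM in replicate 7. For Slc1a3 the log2 difference was 1.52 (SE 0.681, adjusted p = 0.0934), then 0.03 and 1.83. S100b, a calcium-binding protein of mature astrocytes and some oligodendrocytes, was not called, at 180.5, 793 and 1649 CPM in retina IP and 969.7, 1085 and 2067 CPM in ONP IP, with 2067 CPM in replicate 7. For S100b the log2 difference was -0.69 (SE 0.669, adjusted p = 0.464), then -0.47 and -1.01. Aldh1l1, a folate enzyme used as a general astrocyte marker, was not called either (log2 difference 0.11, SE 0.604, adjusted p = 0.915, then -1.25 and 0.36), and its sign differed between the estimates. Apoe, the main lipid carrier of astrocytes and microglia, had no overlap, at 3381, 9496 and 14573 CPM in retina IP and 20470.1, 27048 and 41114 CPM in ONP IP, with 20470.1 CPM in replicate 7, yet did not pass the test (log2 difference -0.83, SE 0.489, adjusted p = 0.205, then -1.64 and -0.93). For these genes the calls depended on the retina libraries used. With retina replicates 1, 5 and 6 alone S100b was lower (-2.83, adjusted p = 4.48e-06), as were Apoe (-1.94, 1.89e-04) and Aldh1l1 (-1.30, 0.018), and Slc1a3 was at 0.11 (0.863). With 2, 3 and 4 alone Slc1a3 was higher (2.32, adjusted p = 0.00127), and S100b (0.24, 0.647), Apoe (-0.11, 0.828) and Aldh1l1 (0.90, 0.089) were not called. Without the batch term Apoe was lower (adjusted p = 9.71e-04). With ONP replicate 7 removed, the test was not passed by Glul (adjusted p = 0.131).

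**Figure D2:**
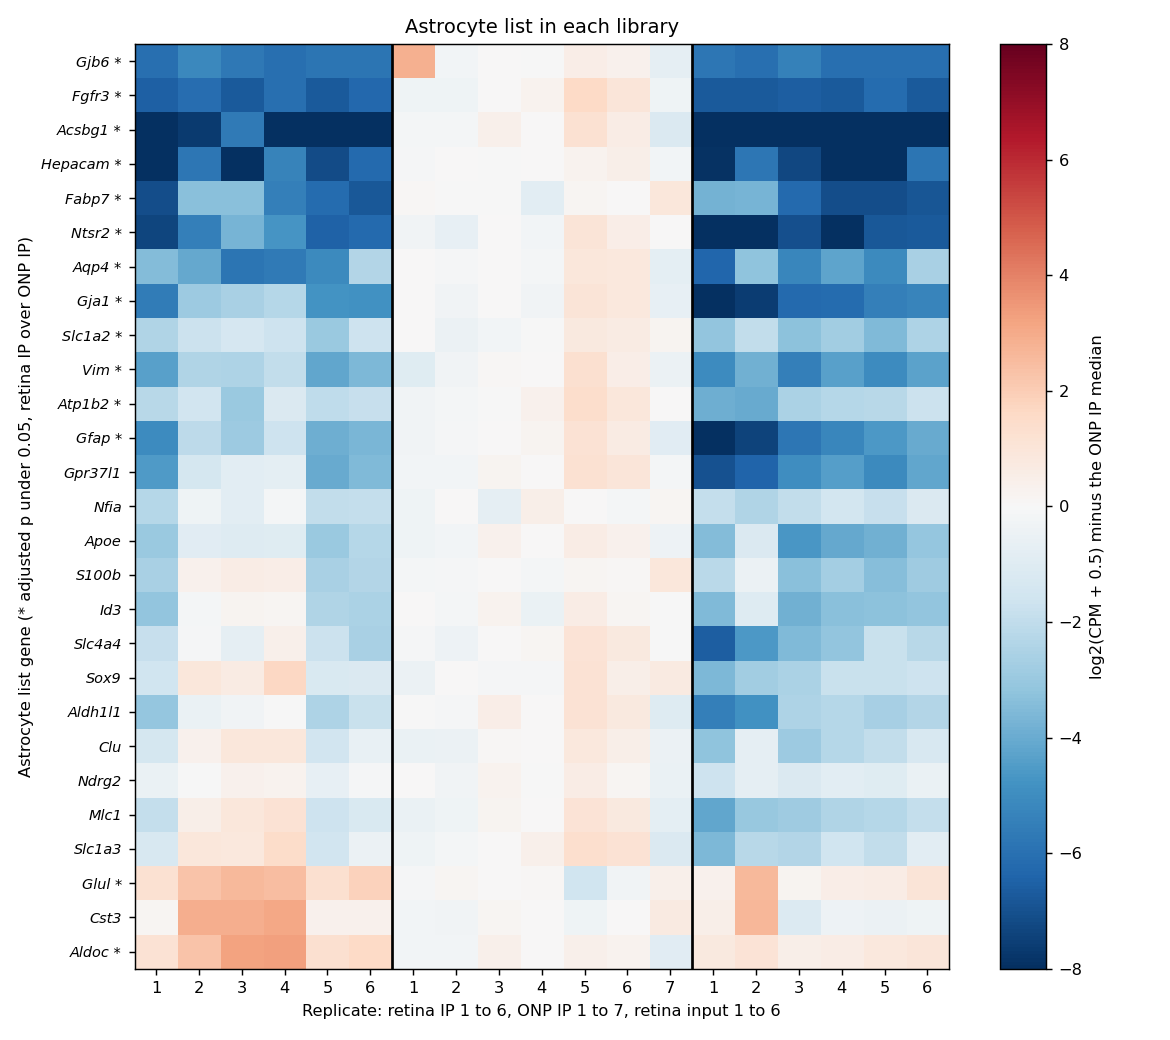
Rows are 27 of the 28 astrocyte list genes, ordered by their difference, columns the 6 retina IP, 7 ONP IP and 6 retina input libraries, and colour the log2(CPM + 0.5) minus the ONP IP median, with stars for adjusted p under 0.05. Retina IP replicates 2, 3 and 4 are redder than 1, 5 and 6 in the lower rows, while Gjb6, Fgfr3 and Acsbg1 are blue in all 6.

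Genes of water, potassium and pH handling had called members in both directions. In this list 2 of 21 tested members were higher in retina IP and 7 lower (median log2 difference -0.44, then -1.16 and -0.29), or 0 and 4 without replicate 7. Of all genes tested 12.9% were higher and 19.9% lower. Slc12a2, the sodium, potassium and chloride cotransporter NKCC1, was at 5.07, 5.67 and 7.14 CPM in retina IP and 65.2, 187 and 238 CPM in ONP IP, with 238 CPM in replicate 7. For Slc12a2 the log2 difference was -5.0 (SE 0.384, adjusted p = 9.07e-09), then -4.78 and -5.10. Car2, carbonic anhydrase 2, which oligodendrocytes also make, was at 150.3, 194 and 362 CPM in retina IP and 992, 2975 and 3635 CPM in ONP IP, with 3015 CPM in replicate 7. For Car2 the log2 difference was -3.55 (SE 0.399, adjusted p = 1.49e-06), then -3.48 and -3.43. Both genes had no overlap and no retina library above its lowest ONP counterpart. Kcnj10, the inward rectifier potassium channel Kir4.1, was at 17.1, 21.7 and 67.3 CPM in retina IP and 199, 239 and 311 CPM in ONP IP, with 286 CPM in replicate 7. For Kcnj10 the log2 difference was -2.81 (SE 0.374, adjusted p = 1.11e-05), then -2.97 and -2.98. Kcnk1, a tandem-pore potassium channel, was higher, at 85, 105 and 119 CPM in retina IP and 29.1, 35.1 and 52.8 CPM in ONP IP, with 29.9 CPM in replicate 7. For Kcnk1 the log2 difference was 1.56 (SE 0.4, adjusted p = 0.00533), then 1.49 and 2.04. Atp1b1, the sodium pump subunit typical of neurons, was higher at 311, 834 and 1406 CPM in retina IP and 34, 56.2 and 108 CPM in ONP IP, with 61.5 CPM in replicate 7 (log2 difference 2.69, SE 0.719, adjusted p = 0.00708, then 3.80 and 4.0), at its input median of 824 CPM. Once ONP replicate 7 was omitted, the threshold was missed by Kcnk1 (adjusted p = 0.16) and Atp1b1 (0.197).

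Slc6a11 and Abat, for the uptake and the breakdown of the transmitter GABA, were higher in retina IP. In the glutamate and GABA list 5 of 19 tested members were higher in retina IP and 4 lower (median log2 difference 0.15, then 0.43 and 1.40), or 2 and 3 without replicate 7. Over all genes, with replicate 7, the shares were 12.9% higher and 19.9% lower. Slc6a11, the glial GABA transporter GAT-3, was at 123, 256 and 786 CPM in retina IP and 14.6, 25.2 and 90.9 CPM in ONP IP, with 14.6 CPM in replicate 7. For Slc6a11 the log2 difference was 4.52 (SE 0.827, adjusted p = 3.31e-04), then 3.37 and 4.92. Abat, the transaminase that breaks down GABA, was at 373, 485 and 781 CPM in retina IP and 62, 104 and 149 CPM in ONP IP, with 62 CPM in replicate 7. For Abat the log2 difference was 2.93 (SE 0.309, adjusted p = 6.66e-07), then 2.34 and 3.33. All retina libraries were above all ONP libraries for both genes. Input medians were 98.3 CPM for Slc6a11 and 396 CPM for Abat, so the gap between IP and input was wider for Slc6a11.

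Enzymes of glycolysis, the breakdown of glucose to pyruvate and lactate, were mostly higher in retina IP, with 4 members lower. In this list 17 of 26 tested members were higher in retina IP and 4 lower (median log2 difference 1.57, then 1.74 and 2.29), or 4 and 3 without replicate 7. Without the batch term 20 were higher and 4 lower. ONP replicate 7 lay below all other ONP libraries for 17 of 26 members (65.4%), against 24.2% of all genes tested. Pfkl, phosphofructokinase of the liver type, was at 655, 803 and 1055 CPM in retina IP and 102, 201 and 246 CPM in ONP IP, with 102 CPM in replicate 7. For Pfkl the log2 difference was 2.17 (SE 0.36, adjusted p = 1.27e-04), then 2.20 and 3.25. Pgk1, phosphoglycerate kinase, was at 433, 982 and 1401 CPM in retina IP and 217, 268 and 298 CPM in ONP IP, with 217 CPM in replicate 7. For Pgk1 the log2 difference was 1.73 (SE 0.436, adjusted p = 0.00476), then 1.84 and 2.32. Eno1, enolase, was at 2806, 3836 and 4567 CPM in retina IP and 705, 919 and 1348 CPM in ONP IP, with 705 CPM in replicate 7. For Eno1 the log2 difference was 1.79 (SE 0.35, adjusted p = 5.97e-04), then 1.93 and 2.65. Pkm, pyruvate kinase, was at 3339.8, 4751 and 7206 CPM in retina IP and 622, 1026 and 1508 CPM in ONP IP, with 622 CPM in replicate 7. For Pkm the log2 difference was 1.86 (SE 0.478, adjusted p = 0.00555), then 2.32 and 3.25. Ldha, the lactate dehydrogenase subunit that favours lactate formation, was at 2996, 3067 and 4516 CPM in retina IP and 490, 764 and 1128 CPM in ONP IP, with 490 CPM in replicate 7. For Ldha the log2 difference was 2.06 (SE 0.384, adjusted p = 3.93e-04), then 2.12 and 3.03. Retina IP exceeded every ONP library for Pfkl, Pgk1, Eno1, Pkm and Ldha. Their input medians were 759, 1031, 3048, 5382 and 2373 CPM, close to retina IP, so whole retina had these levels as well. Slc2a3, the neuronal glucose transporter GLUT3, was higher (medians 146 and 29.3 CPM, replicate 7 27.3 CPM, log2 difference 2.27, SE 0.635, adjusted p = 0.00966, then 2.07 and 2.63) but ended as a call with retina replicates 2, 3 and 4 alone (adjusted p = 0.0579). Without ONP replicate 7 the adjusted p rose above 0.05 for Pgk1 (adjusted p = 0.167), Eno1 (0.0669), Pkm (0.234) and Slc2a3 (0.154).

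The 4 lower members were a transporter and enzymes that set the pace of glycolysis. Slc16a1, the lactate transporter MCT1, which oligodendrocytes also carry, was at 40.7, 69.4 and 103 CPM in retina IP and 415, 489.8 and 1039.8 CPM in ONP IP, with 471 CPM in replicate 7. For Slc16a1 the log2 difference was -2.75 (SE 0.362, adjusted p = 1e-05), then -3.16 and -2.56. Hk2, hexokinase 2, was at 4.61, 7.11 and 11 CPM in retina IP and 13.3, 22.2 and 28.6 CPM in ONP IP, with 28.6 CPM in replicate 7. For Hk2 the log2 difference was -3.80 (SE 0.495, adjusted p = 8.59e-06), then -1.50 and -1.67. The size of the Hk2 difference depended on ONH replicate 7, without which it was -1.87 (adjusted p = 9.49e-04). Pfkfb4 and Pfkfb3, which set the level of an activator of phosphofructokinase, had medians of 6.98 and 29.6 CPM in retina IP and 54.1 and 91.2 CPM in ONP IP (log2 difference -1.94, SE 0.257, adjusted p = 1.04e-05, then -2.83 and -1.64 for Pfkfb4, log2 difference -0.85, SE 0.19, adjusted p = 0.00188, then -1.48 and -0.84 for Pfkfb3). The groups did not overlap for any of the 4. The calls of Pfkfb3 (adjusted p = 0.172) ended when ONP replicate 7 was left out.

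Glycolytic and hypoxia genes are known targets of hypoxia-inducible factors, which bind a short core element. The 250 bases before the annotated start of list genes were searched for ACGTG or GCGTG on either strand, with overlapping matches allowed, so that CACGTG counts once on each strand. Promoter sequences are from RefSeq, build GRCm38.p6. Of 25 glycolysis list genes matched by symbol, 19 (76.0%) held a match. Higher members held it in 11 of 16, lower members in 4 of 4 and members not called in 4 of 5. The share was 38.6% of all 27025 promoters in the table, and 54.7% of the 11902 promoters matched to genes tested. Median GC content was 60.0% in the promoters of the list, 52.0% in all and 59.6% in those of genes tested. All promoters were thus not a background of like GC content, and no difference between these shares was tested. In the hypoxia list 15 of 19 genes matched, and 12 of the 15 held the letters, with 3 of 4 higher, 1 of 2 lower and 8 of 9 members not called. Fewer than 80% of that list matched, and likewise 11902 of 16343 genes tested, so a comparison with either is void. A match is a description of letters, not of binding. A higher and a lower member of the glycolysis list and a pair of vascular factors described further on are printed to show how such matches lie, 5′ to 3′ on the gene's strand, with the matched letters in capitals.
Ldha, chr7:46845554-46845803, plus strand: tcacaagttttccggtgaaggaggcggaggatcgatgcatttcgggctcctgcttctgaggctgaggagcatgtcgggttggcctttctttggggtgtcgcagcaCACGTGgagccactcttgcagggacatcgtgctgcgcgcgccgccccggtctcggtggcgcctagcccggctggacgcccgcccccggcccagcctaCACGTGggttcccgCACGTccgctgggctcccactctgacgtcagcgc
Slc16a1, chr3:104638414-104638663, plus strand: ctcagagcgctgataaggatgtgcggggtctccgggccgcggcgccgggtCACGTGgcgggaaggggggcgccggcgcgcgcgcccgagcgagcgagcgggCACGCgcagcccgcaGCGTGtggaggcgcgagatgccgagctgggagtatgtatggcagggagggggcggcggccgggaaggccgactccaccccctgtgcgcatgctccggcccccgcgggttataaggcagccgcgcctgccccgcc
Adm, chr7:110627407-110627656, plus strand: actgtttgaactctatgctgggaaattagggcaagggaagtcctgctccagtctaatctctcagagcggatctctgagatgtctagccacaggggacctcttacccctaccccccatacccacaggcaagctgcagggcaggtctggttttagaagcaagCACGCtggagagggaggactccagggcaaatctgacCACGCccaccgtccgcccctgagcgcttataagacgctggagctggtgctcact
Angpt4, chr2:151910957-151911206, plus strand: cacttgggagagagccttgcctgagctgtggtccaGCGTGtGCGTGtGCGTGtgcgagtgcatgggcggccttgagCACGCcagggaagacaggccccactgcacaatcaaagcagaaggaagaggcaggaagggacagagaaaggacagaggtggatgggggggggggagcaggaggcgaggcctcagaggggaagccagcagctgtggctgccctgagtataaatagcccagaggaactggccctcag
Ldha held 5 matches, Slc16a1 4, Adm 2 and Angpt4 4. Other promoters of named genes held fewer than Ldha. Pgk1 and Hk2 held 2 each, Eno1, Aldoc, Pfkl and Pfkfb4 1 each, and Vegfa, Cd36 and Pax8 0. Slc16a1, lower in retina IP, had nearly as many as Ldha, which was higher.

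Hypoxia response genes moved both ways. In this list 6 of 19 tested members were higher in retina IP and 3 lower (median log2 difference 0.58, then 0.47 and 0.62), or 2 and 1 without replicate 7. Adm, the vasodilator peptide adrenomedullin, was at 16.8, 76.1 and 174 CPM in retina IP and 3.09, 8.5 and 14.2 CPM in ONP IP, with 3.09 CPM in replicate 7. For Adm the log2 difference was 4.70 (SE 0.936, adjusted p = 7.23e-04), then 3.34 and 5.04. Epas1, the oxygen-regulated factor HIF-2 alpha, was at 144, 228 and 892 CPM in retina IP and 29, 48.9 and 65.6 CPM in ONP IP, with 48.9 CPM in replicate 7. For Epas1 the log2 difference was 2.94 (SE 0.682, adjusted p = 0.00256), then 3.09 and 3.28. Bnip3, a mitochondrial protein of mitophagy, was at 243, 526 and 713 CPM in retina IP and 87.3, 122 and 161 CPM in ONP IP, with 104 CPM in replicate 7. For Bnip3 the log2 difference was 2.05 (SE 0.4, adjusted p = 5.91e-04), then 2.05 and 2.45. Retina IP exceeded all ONP libraries for Adm, Epas1 and Bnip3. Hif1a, the oxygen-regulated factor HIF-1 alpha, was higher (medians 308 and 43 CPM, replicate 7 31.1 CPM, log2 difference 1.44, SE 0.512, adjusted p = 0.0361, then 2.99 and 3.54), though not with retina replicates 1, 5 and 6 alone (adjusted p = 0.0633). Without ONH replicate 7 the Hif1a difference was 3.35. Ndrg1, a stress gene also abundant in oligodendrocytes, was lower, at 11.3, 34 and 112 CPM in retina IP and 1043, 1259 and 1404 CPM in ONP IP, with 1043 CPM in replicate 7. For Ndrg1 the log2 difference was -4.24 (SE 0.49, adjusted p = 2.09e-06), then -4.77 and -4.30. Mxi1, an antagonist of Myc, was lower too (medians 24.4 and 90.3 CPM, replicate 7 89.4 CPM, log2 difference -1.47, SE 0.354, adjusted p = 0.00344, then -1.95 and -1.53). Leaving out ONP replicate 7 ended the call for Epas1 (adjusted p = 0.0674), Hif1a (0.671) and Mxi1 (0.204).

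Factors that act on vessels differed gene by gene. In the vascular list 4 of 19 tested members were higher in retina IP and 5 lower (median log2 difference 0.04, then -0.51 and 0.12), or 3 and 4 without replicate 7. Over all genes, with replicate 7, the shares were 12.9% higher and 19.9% lower. Angpt4 (ENSMUSG00000027460, mm10 chromosome 2, 151911210 to 151945337), an angiopoietin and ligand of the endothelial receptor Tie2, was at 54, 291 and 678 CPM in retina IP and 0.111, 0.316 and 0.731 CPM in ONP IP, with 0.36 CPM in replicate 7. For Angpt4 the log2 difference was 11.28 (SE 1.61, adjusted p = 2.55e-05), then 9.98 and 10.03. By retina replicate, Angpt4 was at 105, 678, 542, 478, 54 and 63.6 CPM, against 27.8 CPM at the input median. Replicates 2, 3 and 4 were the high ones, yet the lowest retina library was above every ONP library. Angpt1, the angiopoietin that steadies mature vessels, went the other way, at 0.676, 1.43 and 4.01 CPM in retina IP and 19.6, 24.6 and 53.8 CPM in ONP IP, with 23.8 CPM in replicate 7. For Angpt1 the log2 difference was -3.36 (SE 0.435, adjusted p = 8.05e-06), then -3.97 and -3.42. Vegfa, the growth factor that draws retinal vessels, was at 54.6, 89.6 and 249 CPM in retina IP and 7.59, 13.8 and 20.5 CPM in ONP IP, with 13.8 CPM in replicate 7. For Vegfa the log2 difference was 2.94 (SE 0.67, adjusted p = 0.00223), then 3.17 and 3.48. Ndp, norrin, a ligand for frizzled 4 in retinal vessel growth, was at 19.5, 49.1 and 105 CPM in retina IP and 10.3, 16.1 and 24.9 CPM in ONP IP, with 13.9 CPM in replicate 7 (log2 difference 2.42, SE 0.598, adjusted p = 0.00409, then 1.74 and 2.31), with overlap, and its adjusted p without ONH replicate 7 was 0.0539. Wnt7b, a Wnt ligand for brain endothelium, was at 0, 0 and 0.796 CPM in retina IP and 16.5, 49.3 and 107 CPM in ONP IP, with 16.5 CPM in replicate 7. For Wnt7b the log2 difference was -6.85 (SE 0.8, adjusted p = 2.32e-06), then -8.39 and -6.57. Thbs2, thrombospondin 2, which restrains vessel growth and promotes synapse formation, was at 0, 0.0288 and 0.391 CPM in retina IP and 4.25, 7.45 and 36.6 CPM in ONP IP, with 5.97 CPM in replicate 7. For Thbs2 the log2 difference was -6.36 (SE 0.919, adjusted p = 2.89e-05), then -6.88 and -5.74. No call held without ONP replicate 7 for Vegfa (adjusted p = 0.0765).

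Cd36 and Fabp3 were the called genes of the fatty acid list higher in retina IP. In the fatty acid list 2 of 22 tested members were higher in retina IP and 9 lower (median log2 difference -0.53, then -0.76 and -0.23), or 2 and 6 without replicate 7. Of all genes 12.9% were higher and 19.9% lower, and 567 and 1588 of 16264 in the fit without replicate 7. Cd36 (ENSMUSG00000002944, mm10 chromosome 5, 17781690 to 17888801), a scavenger receptor that takes up long-chain fatty acids and binds thrombospondin, was at 198, 696 and 2078 CPM in retina IP and 0, 1.3 and 1.86 CPM in ONP IP, with 1.58 CPM in replicate 7. For Cd36 the log2 difference was 10.34 (SE 2.04, adjusted p = 6.63e-04), then 9.77 and 9.51. All retina libraries were above all ONP libraries by far, and the input median was 157 CPM. Fabp3, the fatty acid binding protein of heart and muscle, was at 18.4, 63.8 and 117 CPM in retina IP and 0.95, 2.72 and 4.1 CPM in ONP IP, with 4.1 CPM in replicate 7. For Fabp3 the log2 difference was 3.84 (SE 0.651, adjusted p = 1.56e-04), then 4.74 and 4.18. In the cholesterol list 1 of 25 tested members were higher in retina IP and 6 lower (median log2 difference -0.29, then -0.64 and -0.14), or 0 and 0 without replicate 7. With replicate 7 the share of lower members was near that of all genes. Hmgcs1, the cytosolic enzyme that starts cholesterol synthesis, was at 384, 413 and 496 CPM in retina IP and 819, 1286 and 2126 CPM in ONP IP, with 1099 CPM in replicate 7. For Hmgcs1 the log2 difference was -1.23 (SE 0.314, adjusted p = 0.00514), then -1.66 and -1.12. Tm7sf2, a sterol reductase of the same pathway, was the member higher in retina IP (medians 27.7 and 11.2 CPM, replicate 7 11.3 CPM, log2 difference 1.19, SE 0.345, adjusted p = 0.0121, then 1.47 and 1.62). In the fit lacking ONP replicate 7, Hmgcs1 (adjusted p = 0.116) and Tm7sf2 (0.237) no longer passed.

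**Figure D3:**
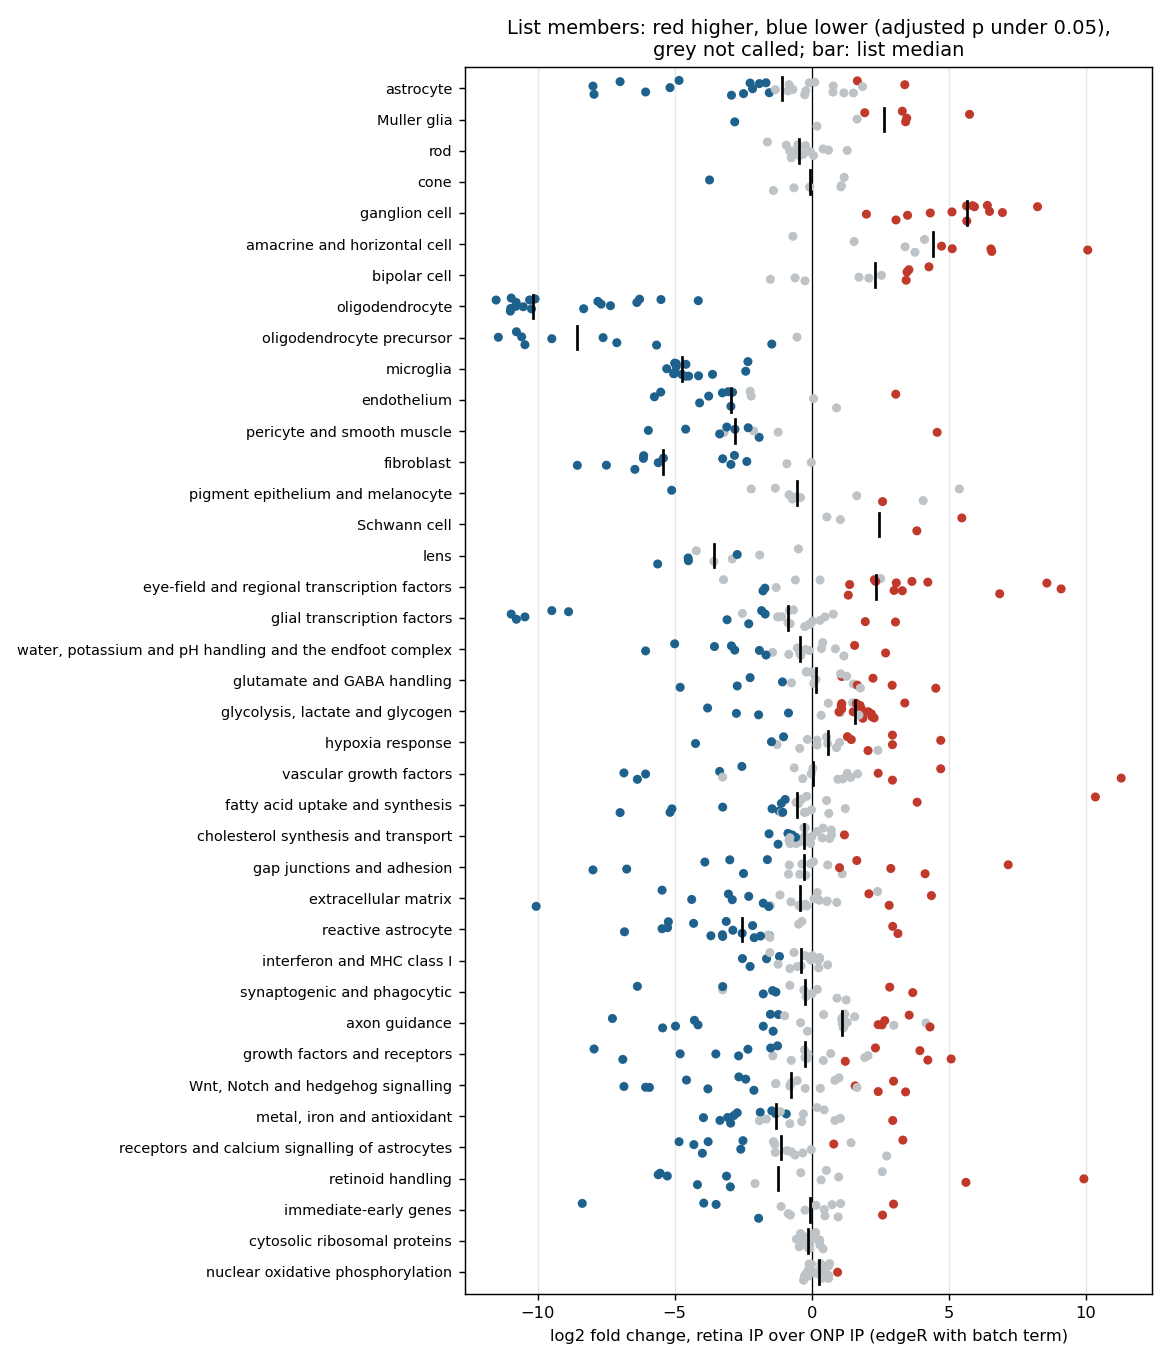
Points are the tested members of each of the 39 gene lists, placed by their log2 fold change of retina IP over ONP IP with the batch term, in red where higher, blue where lower and grey where not called, and bars are list medians. The oligodendrocyte list lies near -10.16 and the ganglion cell list near 5.65, with most functional lists spread on both sides of 0.

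Receptors for the growth factors that recruit astrocytes and oligodendrocyte precursors were unlike in the 2 tissues. In the growth factor list 5 of 23 tested members were higher in retina IP and 8 lower (median log2 difference -0.25, then -1.0 and -0.19), or 1 and 5 without replicate 7. Pdgfra, the receptor for the factor by which neurons draw astrocytes over the retina and which also marks oligodendrocyte precursors, was at 151, 657 and 1400.3 CPM in retina IP and 52.5, 61.6 and 100 CPM in ONP IP, with 61.6 CPM in replicate 7. For Pdgfra the log2 difference was 3.94 (SE 0.807, adjusted p = 9.16e-04), then 3.34 and 3.78. Although precursor genes were higher in ONP IP, Pdgfra was higher in every retina library. Its ligand Pdgfa was lower, at 7.87, 10.2 and 14.9 CPM in retina IP and 109, 122 and 175 CPM in ONP IP, with 175 CPM in replicate 7. For Pdgfa the log2 difference was -3.50 (SE 0.233, adjusted p = 1.47e-09), then -3.52 and -3.78. Fgfr2, an FGF receptor of oligodendrocytes and astrocytes, was at 2.01, 3.29 and 18.2 CPM in retina IP and 198, 262 and 325 CPM in ONP IP, with 210 CPM in replicate 7. For Fgfr2 the log2 difference was -4.80 (SE 0.536, adjusted p = 1.36e-06), then -5.27 and -4.74. Fgf9, a secreted FGF, was at 17.8, 40.5 and 50.1 CPM in retina IP and 0, 0.223 and 0.695 CPM in ONP IP, with 0.432 CPM in replicate 7 (log2 difference 5.08, SE 1.1, adjusted p = 0.00153, then 6.95 and 6.61), below its input median of 54.9 CPM. Bmp4, a bone morphogenetic protein, was at 0, 0.186 and 0.547 CPM in retina IP and 16.8, 23.4 and 42.2 CPM in ONP IP, with 16.8 CPM in replicate 7. For Bmp4 the log2 difference was -6.89 (SE 0.615, adjusted p = 7.14e-08), then -6.81 and -6.03. Among genes of Wnt, Notch and hedgehog signalling 4 of 23 tested members were higher in retina IP and 8 lower (median log2 difference -0.77, then -0.94 and -0.07), or 2 and 5 without replicate 7, Dkk3 and Ndp being among the higher and Wnt7b among the lower. Dropping ONP replicate 7 raised the adjusted p above 0.05 for Fgf9 (adjusted p = 0.0585).

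Axon guidance genes had called members in both directions. In this list 5 of 28 tested members were higher in retina IP and 9 lower (median log2 difference 1.10, then 0.14 and 1.23), or 2 and 5 without replicate 7. Epha5 and Epha4, receptors for ephrins that map retinal axons, were higher (medians 58.2 and 2.3 CPM, replicate 7 2.3 CPM, log2 difference 3.55, SE 0.879, adjusted p = 0.00423, then 4.53 and 4.69 for Epha5, and medians 56.6 and 20.7 CPM, replicate 7 7.84 CPM, log2 difference 2.42, SE 0.327, adjusted p = 1.3e-05, then 1.61 and 3.09 for Epha4). Efna5, an ephrin ligand of both, was at 27.1, 33.1 and 39.9 CPM in retina IP and 4.22, 5.49 and 6.07 CPM in ONP IP, with 6.04 CPM in replicate 7. For Efna5 the log2 difference was 2.66 (SE 0.386, adjusted p = 3.05e-05), then 2.72 and 2.71. Robo2, a receptor for Slit on ganglion cell axons, was at 10.3, 65.4 and 80.3 CPM in retina IP and 0.222, 1.64 and 3.52 CPM in ONP IP, with 1.01 CPM in replicate 7. For Robo2 the log2 difference was 4.31 (SE 1.03, adjusted p = 0.00332), then 5.0 and 5.89. These 4 genes lay above all ONP libraries in every retina library. Input medians were 44.6, 29.7, 25.7 and 55.6 CPM in that order. Ntn1, netrin 1, was at 0, 0.0537 and 0.324 CPM in retina IP and 7.44, 8.34 and 20.1 CPM in ONP IP, with 20.1 CPM in replicate 7. For Ntn1 the log2 difference was -7.27 (SE 0.628, adjusted p = 4.43e-08), then -6.86 and -7.51. Unc5b, a netrin receptor, was at 0.0995, 2.52 and 4.21 CPM in retina IP and 34.7, 106 and 145 CPM in ONP IP, with 129.8 CPM in replicate 7. For Unc5b the log2 difference was -5.44 (SE 0.654, adjusted p = 3.37e-06), then -5.39 and -5.55. Sema4d, a semaphorin of oligodendrocytes, and Efnb3, an ephrin, were lower (medians 22.8 and 737 CPM, replicate 7 506 CPM, log2 difference -4.15, SE 0.41, adjusted p = 2.76e-07, then -4.73 and -4.16 for Sema4d and medians 7.54 and 156 CPM, replicate 7 259 CPM, log2 difference -4.97, SE 0.623, adjusted p = 5.49e-06, then -4.44 and -5.0 for Efnb3). With ONP replicate 7 removed, the test was not passed by Epha5 (adjusted p = 0.122) and Robo2 (0.0969).

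Junction and matrix genes differed in which members were present. In the junction and adhesion list 5 of 20 tested members were higher in retina IP and 6 lower (median log2 difference -0.29, then -0.71 and -0.18), or 1 and 4 without replicate 7. Cldn10, a claudin, was at 82, 315 and 764 CPM in retina IP and 0.968, 2.05 and 6.99 CPM in ONP IP, with 2.37 CPM in replicate 7. For Cldn10 the log2 difference was 7.16 (SE 1.44, adjusted p = 8.06e-04), then 7.11 and 7.55. Its retina IP median was above the input median of 47.6 CPM, and no ONP library reached the lowest retina library. Itgb4, an integrin subunit that binds laminin, was at 1.32, 3.21 and 13.7 CPM in retina IP and 105, 142 and 197 CPM in ONP IP, with 115 CPM in replicate 7. For Itgb4 the log2 difference was -3.90 (SE 0.57, adjusted p = 3.3e-05), then -4.59 and -4.0. In the matrix list 3 of 25 tested members were higher in retina IP and 8 lower (median log2 difference -0.42, then -0.87 and -0.45), or 1 and 5 without replicate 7. Tnc, tenascin C, was at 10, 25.7 and 38.2 CPM in retina IP and 0.146, 1.73 and 4.94 CPM in ONP IP, with 1.73 CPM in replicate 7. For Tnc the log2 difference was 4.36 (SE 1.04, adjusted p = 0.00324), then 3.70 and 4.10. Hapln2, a link protein found at nodes of Ranvier, was at 0, 0.0647 and 0.697 CPM in retina IP and 57.1, 194 and 287 CPM in ONP IP, with 278 CPM in replicate 7. For Hapln2 the log2 difference was -10.05 (SE 0.765, adjusted p = 7.9e-09), then -9.91 and -10.24. Vcan, versican, was lower (medians 1.38 and 16.8 CPM, replicate 7 21.1 CPM, log2 difference -3.04, SE 0.504, adjusted p = 1.27e-04, then -3.11 and -3.23), as was Timp1, an inhibitor of matrix proteases (medians 0.0244 and 6.78 CPM, replicate 7 7.27 CPM, log2 difference -5.46, SE 0.772, adjusted p = 2.28e-05, then -5.69 and -5.45).

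Genes that astrocytes raise after injury were mostly lower in retina IP than in ONP IP. In the reactive astrocyte list 2 of 21 tested members were higher in retina IP and 15 lower (median log2 difference -2.54, then -3.05 and -2.45), or 1 and 9 without replicate 7. C3, complement component 3, which microglia also make, was at 0.796, 4.84 and 7.25 CPM in retina IP and 77.5, 179 and 276 CPM in ONP IP, with 197 CPM in replicate 7. For C3 the log2 difference was -5.23 (SE 0.515, adjusted p = 2.57e-07), then -5.33 and -5.33. Serpina3n, a serine protease inhibitor, was at 14.7, 27.3 and 108 CPM in retina IP and 431, 924 and 1231 CPM in ONP IP, with 702 CPM in replicate 7. For Serpina3n the log2 difference was -3.68 (SE 0.545, adjusted p = 3.8e-05), then -4.18 and -3.63. S1pr3, a receptor for sphingosine 1-phosphate, was at 14.7, 39.3 and 72.9 CPM in retina IP and 403, 983 and 2334 CPM in ONP IP, with 403 CPM in replicate 7. For S1pr3 the log2 difference was -3.26 (SE 0.461, adjusted p = 2.27e-05), then -4.80 and -3.07. No retina library reached the ONP range for C3, Serpina3n or S1pr3. Cd109, a membrane protein that binds TGF-beta, was lower (medians 0.0846 and 43.4 CPM, replicate 7 40.4 CPM, log2 difference -6.83, SE 0.748, adjusted p = 1.07e-06, then -7.61 and -6.77). C4b, complement component 4, was lower (medians 149 and 1498 CPM, replicate 7 1498 CPM, log2 difference -2.10, SE 0.582, adjusted p = 0.00931, then -2.31 and -2.13). Cp, the copper ferroxidase ceruloplasmin, was higher, at 208, 504 and 1093 CPM in retina IP and 86.6, 127 and 222 CPM in ONP IP, with 86.6 CPM in replicate 7 (log2 difference 2.95, SE 0.587, adjusted p = 7.08e-04, then 1.91 and 2.88), with overlap. In the interferon and MHC class I list 0 of 19 tested members were higher in retina IP and 4 lower (median log2 difference -0.39, then -0.50 and -0.32), or 0 and 1 without replicate 7. With replicate 7 the share of lower members was near the 19.9% of all genes, of which 12.9% were higher. H2-D1, an MHC class I heavy chain whose near-identical relatives make counts uncertain, was at 307, 349 and 409.6 CPM in retina IP and 1050.4, 1415 and 1826 CPM in ONP IP, with 1212 CPM in replicate 7. For H2-D1 the log2 difference was -1.65 (SE 0.216, adjusted p = 9.24e-06), then -1.98 and -1.55. Ifitm3, an interferon-induced membrane protein, was lower (medians 60.6 and 274 CPM, replicate 7 523 CPM, log2 difference -2.53, SE 0.56, adjusted p = 0.00178, then -1.99 and -2.63). Microglia list genes were lower in the same libraries, and their part in these differences was not tested. Once ONP replicate 7 was omitted, the threshold was missed by C4b (adjusted p = 0.228) and Ifitm3 (0.128).

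Fth1, Mt1 and Gpx1 were lower in retina IP. In the list of metal, iron and antioxidant genes 1 of 21 tested members were higher in retina IP and 10 lower (median log2 difference -1.32, then -1.42 and -1.16), or 2 and 6 without replicate 7. Of all genes 12.9% were higher and 19.9% lower, and 567 and 1588 of 16264 in the fit without replicate 7. ONP replicate 7 lay above all other ONP libraries for 8 of the 21 (38.1%) and below them for 5 (23.8%), against 27.1% and 24.2% of all genes. Fth1, the ferritin heavy chain, was at 614, 910.2 and 1095 CPM in retina IP and 2608, 3035 and 8708 CPM in ONP IP, with 8708 CPM in replicate 7. For Fth1 the log2 difference was -2.84 (SE 0.308, adjusted p = 9.92e-07), then -2.16 and -3.08. Mt1, metallothionein 1, was at 70.5, 156 and 251 CPM in retina IP and 214, 502 and 2332 CPM in ONP IP, with 2332 CPM in replicate 7. For Mt1 the log2 difference was -3.35 (SE 0.443, adjusted p = 1.03e-05), then -2.06 and -3.61. Replicate 7 was the highest ONP library for both, and for Mt1 the lowest ONP library lay inside the retina range. Gpx1, glutathione peroxidase 1, was at 94.7, 139 and 199 CPM in retina IP and 727, 1151 and 1767 CPM in ONP IP, with 1767 CPM in replicate 7. For Gpx1 the log2 difference was -3.07 (SE 0.375, adjusted p = 4.03e-06), then -3.01 and -3.34. In the retinoid list 2 of 14 tested members were higher in retina IP and 6 lower (median log2 difference -1.24, then -1.54 and -0.27), or 0 and 6 without replicate 7. Aldh1a1, a retinaldehyde dehydrogenase, was at 4.13, 17 and 36.2 CPM in retina IP and 831, 1271 and 1939 CPM in ONP IP, with 876 CPM in replicate 7. For Aldh1a1 the log2 difference was -5.27 (SE 0.435, adjusted p = 2.47e-08), then -6.03 and -5.31. Crabp1, a cellular retinoic acid binding protein of retinal neurons, was higher (medians 16.5 and 0 CPM, replicate 7 0.072 CPM, log2 difference 5.62, SE 1.46, adjusted p = 0.00593, then 8.17 and 7.93). Without ONP replicate 7 the adjusted p rose above 0.05 for Crabp1 (adjusted p = 0.132).

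Of genes for receptors and calcium signalling, 2 of 18 tested members were higher in retina IP and 6 lower (median log2 difference -1.12, then -1.56 and -1.01), or 1 and 4 without replicate 7. Lpar1, a lysophosphatidic acid receptor that oligodendrocytes also carry, was at 5.81, 19.7 and 63.8 CPM in retina IP and 501, 754 and 904 CPM in ONP IP, with 501 CPM in replicate 7. For Lpar1 the log2 difference was -3.99 (SE 0.531, adjusted p = 1.12e-05), then -4.81 and -4.07. Grm3, the metabotropic glutamate receptor of astrocytes, was at 0.0498, 3.79 and 7.89 CPM in retina IP and 40.9, 91.2 and 137 CPM in ONP IP, with 87.6 CPM in replicate 7. For Grm3 the log2 difference was -4.30 (SE 0.821, adjusted p = 4.88e-04), then -4.63 and -4.38. Neither gene overlapped between the groups. For synaptogenic and phagocytic genes, 2 of 16 tested members were higher in retina IP and 5 lower (median log2 difference -0.25, then -0.81 and -0.13), or 0 and 1 without replicate 7. With replicate 7 the share of higher members was near the 12.9% of all genes, of which 19.9% were lower. Gpc4, a glypican by which astrocytes promote synapses, was higher (medians 31 and 12.1 CPM, replicate 7 5.54 CPM, log2 difference 2.84, SE 0.697, adjusted p = 0.00398, then 1.47 and 3.01). Itgb5, an integrin subunit for engulfment, was lower (medians 7.69 and 86.2 CPM, replicate 7 86.2 CPM, log2 difference -3.25, SE 0.708, adjusted p = 0.00155, then -3.81 and -3.20). Immediate-early genes, which handling of tissue can raise within minutes, had shares near those of all genes (12.9% higher and 19.9% lower): 2 of 16 tested members were higher in retina IP and 4 lower (median log2 difference -0.05, then -0.90 and 0.19), or 0 and 1 without replicate 7. Egr1, a zinc finger factor of this class, was higher (medians 34.7 and 7.77 CPM, replicate 7 7.2 CPM, log2 difference 2.98, SE 0.718, adjusted p = 0.00348, then 2.67 and 3.10), and Atf3, a stress factor, was lower (medians 0.961 and 33.6 CPM, replicate 7 20.1 CPM, log2 difference -3.49, SE 0.68, adjusted p = 5.93e-04, then -4.64 and -3.72). Klf2 gave 439 counts over the ONP IP libraries and 2 in the other group, 235 times as many per library size (interval 64.7 to 1947). The calls of Gpc4 (adjusted p = 0.0674), Itgb5 (0.0575), Egr1 (0.0623) and Atf3 (0.0766) ended when ONP replicate 7 was left out.

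The largest differences that held in the 3 estimates comprised 12 genes in each direction. On the retina side stood genes of retinal neurons with input levels close to IP. Chat, which makes acetylcholine in starburst amacrine cells, gave 7817 counts over the retina IP libraries and 0 in the other group, at least 2434-fold. Slc18a3, the vesicular transporter for acetylcholine, gave 7924 counts over the retina IP libraries and 1 in the other group, 7401 times as many per library size (interval 1328 to 292342). Chrna6 and Chrna3 encode nicotinic receptor subunits. For Chrna6 there were 53505 counts over the retina IP libraries and 2 in the other group, 24985 times as many per library size (interval 6916 to 206316), and for Chrna3 5266 counts over the retina IP libraries and 3 in the other group, 1639 times as many per library size (interval 561 to 7952). Replicate 7 was the only ONP library with counts of Chrna6 (0.144 CPM). Grm2, a metabotropic glutamate receptor of starburst cells, gave 6559 counts over the retina IP libraries and 0 in the other group, at least 2042-fold. Hecw1, a ubiquitin ligase of neurons, gave 3633 counts over the retina IP libraries and 0 in the other group, at least 1131-fold. Abcc8, the sulfonylurea receptor SUR1, gave 2578 counts over the retina IP libraries and 1 in the other group, 2408 times as many per library size (interval 432 to 95135). The ONP count of Slc18a3 was in replicate 6 and that of Abcc8 in replicate 1. Input medians were 55.6 CPM for Chat, 47.4 for Slc18a3 and 428 for Chrna6. The matching retina IP medians were 54.4, 61.1 and 414 CPM. Intervals and floors here cover counting error only, at the 95% level, and the floor is 3 counts over the group. Leaving out ONP replicate 7 ended the call for Chat (adjusted p = 0.163), Slc18a3 (0.0587), Grm2 (0.51) and Hecw1 (0.0634).

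A further 4 of the 12 had retina IP medians well above input. Besides Angpt4 and Cd36 these were Gulo and Ackr2. Gulo, the last enzyme of vitamin C synthesis in rodents, gave 17608 counts over the retina IP libraries and 2 in the other group, 8222 times as many per library size (interval 2276 to 67900.4), with medians of 127 CPM in retina IP and 15.5 CPM in input. Replicate 7 was the only ONP library with counts of Gulo (0.144 CPM). Ackr2, a decoy receptor that clears chemokines, was at 12.4, 51.5 and 180.2 CPM in retina IP and 0, 0 and 0.25 CPM in ONP IP, with 0.072 CPM in replicate 7 (log2 difference 10.25, SE 2.19, adjusted p = 0.00132, then 10.43 and 10.17), with 10.6 CPM at the input median. On the nerve side 7 of the 12 were list genes of oligodendrocytes and their precursors, among them Mog, Mobp, Opalin, Fa2h, Olig2 and Gpr17. Opalin, a membrane glycoprotein of myelin, was at 0, 0.0737 and 0.518 CPM in retina IP and 172, 383 and 519 CPM in ONP IP, with 519 CPM in replicate 7. For Opalin the log2 difference was -11.51 (SE 0.61, adjusted p = 7.36e-11), then -11.39 and -11.63. Mobp and Fa2h, of myelin and its lipids, had ONP medians of 7450.5 and 437 CPM and retina medians of 1.42 and 0.133 CPM. Gjc3, connexin 29, Galnt6, a glycosyltransferase, and Klk6, a protease, had ONP medians of 308, 257 and 1169.8 CPM and retina medians of 0.0493, 0.0812 and 0.419 CPM. Cyp2j12, a cytochrome P450, gave 12285 counts over the ONP IP libraries and 2 in the other group, 6577 times as many per library size (interval 1820.3 to 54314), and Itih3, a hyaluronan-binding inhibitor heavy chain, gave 11119 counts over the ONP IP libraries and 2 in the other group, 5953 times as many per library size (interval 1648 to 49159.8). No call held without ONP replicate 7 for Ackr2 (adjusted p = 0.305).

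The 1251 genes of the stricter retina-high set were also compared with retina input. Their IP median was at least 2-fold above input in 104 genes (8.31%), within 2-fold in 1088 (87.0%) and at least 2-fold below in 59 (4.72%). Among all 16355 genes tested the shares were 8.72%, 88.3% and 2.98%. The median log2 ratio of IP over input was -0.21 for the 1251 genes and 0.01 for all genes. In 29 of the 1251 genes every IP library lay above every input library, against 259 of all genes, and in 53 every IP library lay below every input library, against 416.

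**Figure D4:**
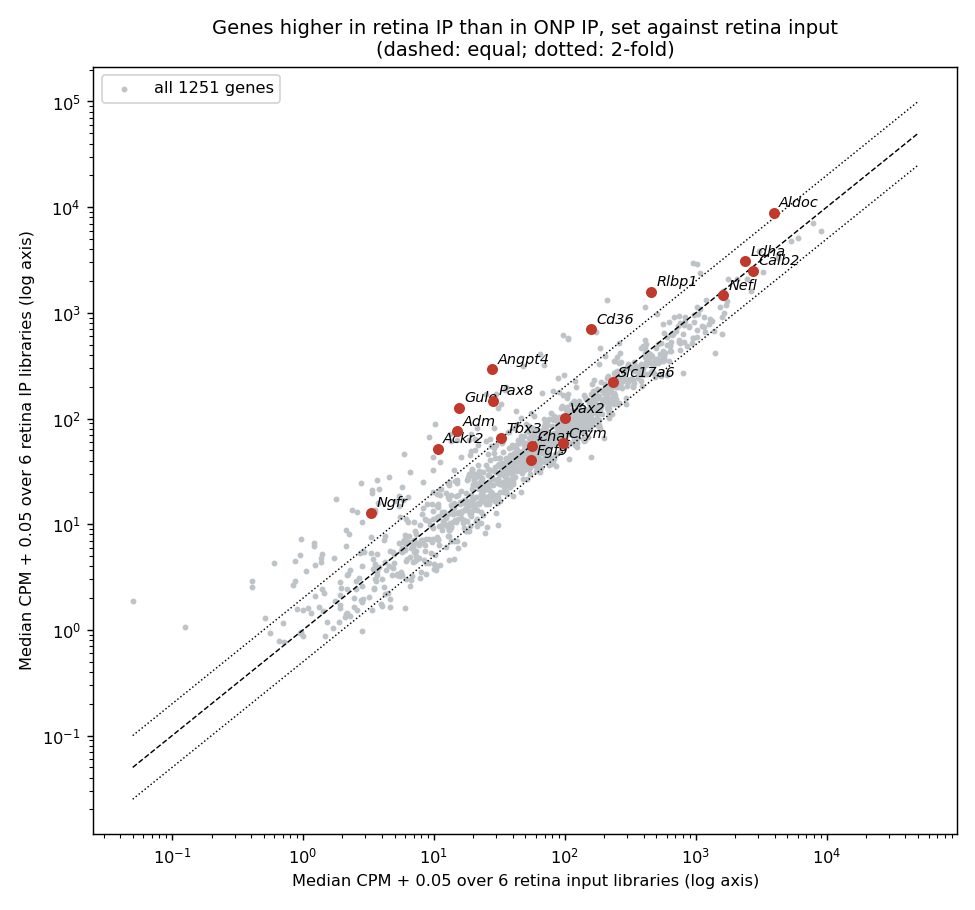
Each point is a gene of the stricter retina-high set, with the median CPM + 0.05 over retina input on the x axis and over retina IP on the y axis, both log, a dashed line for equal values and dotted lines for 2-fold. Angpt4, Cd36, Ackr2, Gulo and Pax8 lie above the upper dotted line, and Nefl, Chat, Calb2 and Slc17a6 lie near the dashed line.

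Housekeeping lists showed how far ONP replicate 7 stood from the other ONP libraries. In the list of cytosolic ribosomal proteins 0 of 20 tested members were higher in retina IP and 0 lower (median log2 difference -0.13, then 0.44 and -0.20), or 0 and 0 without replicate 7, and replicate 7 lay above all other ONP libraries for 20 of 20. Without the batch term 10 of 20 were higher. Rps18, a protein of the small subunit, was at 77.2, 112 and 131 CPM in retina IP and 36.8, 39.5 and 129.6 CPM in ONP IP, with 129.6 CPM in replicate 7. For Rps18 the log2 difference was 0.07 (SE 0.235, adjusted p = 0.849), then 1.07 and -0.02. Among nuclear genes of oxidative phosphorylation 1 of 26 tested members were higher in retina IP and 0 lower (median log2 difference 0.28, then 0.62 and 0.55), or 0 and 0 without replicate 7, and 15 were higher without the batch term. Cox6c, a subunit of cytochrome c oxidase, was at 169.7, 218 and 240.2 CPM in retina IP and 42.3, 47.1 and 328 CPM in ONP IP, with 328 CPM in replicate 7. For Cox6c the log2 difference was -0.27 (SE 0.25, adjusted p = 0.445), then 1.31 and -0.42. Its sign turned with the batch term. For Rps18 and Cox6c replicate 7 sat with or above the retina libraries, while the 6 batch 1 libraries lay below the retina range. Over all genes tested, replicate 7 lay within the retina range for 40.3%, above the other ONP libraries for 27.1% and below them for 24.2%.

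**Figure D5:**
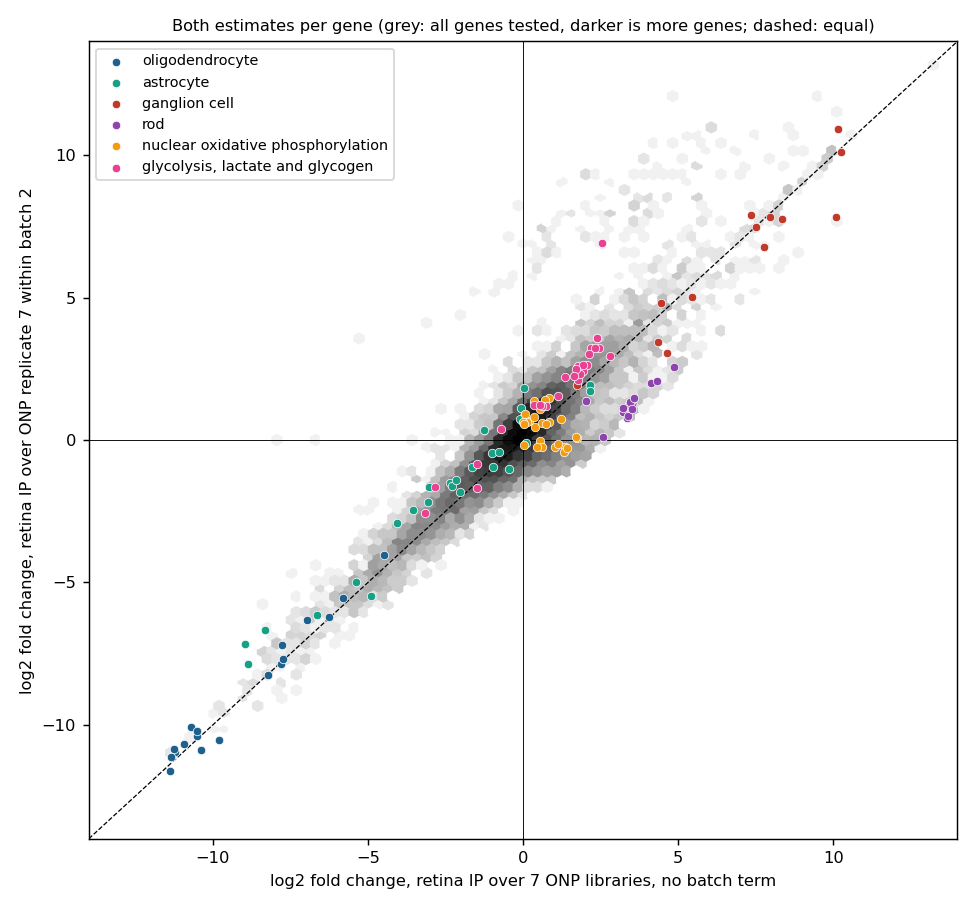
Each gene is placed by its log2 fold change of retina IP over all 7 ONP libraries without a batch term (x axis) and over ONP replicate 7 alone within batch 2 (y axis), with all genes tested in grey and 6 lists in colour. Oligodendrocyte, ganglion cell and glycolysis genes lie near the dashed line of equal values, and rod genes lie below it.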

How the data were processed

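RNA was measured in 26 mouse libraries, of which the 6 retina IP and 7 ONP IP libraries were compared. Per the submitters' processing notes, the authors quantified reads with Salmon 1.6.0 and the build mm10, and they deposited estimated counts per gene, as whole numbers, for 54532 genes. Symbols and positions were taken from GENCODE M21. Groups and batches follow the labels, and no 2 libraries of the same group were near-copies of each other.

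Counts were analysed in R 4.3.3 with edgeR 4.0.16 (TMM, filterByExpr at a count of 10 or more and a total of 15 or more, quasi-likelihood F test, region plus batch, all 20 IP libraries), with Benjamini-Hochberg adjustment. ONH libraries entered the fit so that batch could be estimated. CPM used TMM factors over all 26 libraries. Total counts are given per group in the text.

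Gene lists numbered 39 with 657 genes. Aldoa was left out because its symbol stands on more than 1 gene. The text names the 12 largest changes per direction (called, same sign in 3 estimates, no overlap, at least 20 CPM on average where higher). From each list it names at most 3 called genes of the majority direction and 2 of the other. These list genes also had the same sign in 3 estimates and at least 5 CPM on average where higher. Named as well are a fixed set of markers, and other list members as values with their test. Some genes that met these rules are not reported here. Members and lists were chosen with earlier results of these data known. Fitted folds are not used where either group had at most 3 counts; the ratio of counts per library size and its exact Poisson interval are given. Alternatives used DESeq2 1.42.0, limma 3.58.1 (voom), RLE factors, other filters, other sets of libraries, no batch term, a replicate block, a 2-fold test and the omission of each library. Figures were drawn with matplotlib 3.10.9.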

Additional observations from a re-analysis of the deposited data

Results flagged for a closer look

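Levels of 146 genes named above were checked in retina IP and in ONP IP, 292 checks in all, for a library whose gap to its nearest neighbour took most of the range of its group (Dixon's critical value at 95%). Of these checks 32 found such a library. The chance rate of about 1 in 20 holds for normally distributed values, while the CPM were untransformed and several were near 0. The count of 32 can therefore not be set against chance. Values are CPM, with the nearest library of the same group after each. ONP IP replicate 7 stood above the rest for Chrna6 (0.144, nearest 0), Gngt2 (15.3, nearest 7.22), S100b (2067, nearest 1229) and Pdgfa (175, nearest 126). The same library stood above the others for Mt1 (2332, nearest 577), Fth1 (8708, nearest 4856), Gulo (0.144, nearest 0) and Cox6c (328, nearest 54). It also stood above for Rps18 (129.6, nearest 46.2). ONP IP replicate 1 stood above the rest for Col1a1 (135, nearest 29.3), Pax8 (4.39, nearest 1.52), Gjb6 (231, nearest 46) and Thbs2 (36.6, nearest 13.9). The same library stood above the others for Bmp4 (42.2, nearest 26.1), Abcc8 (0.0499, nearest 0) and Ackr2 (0.25, nearest 0.072). Retina IP replicate 2 stood above the rest for Gjb6 (0.383, nearest 0.0977), Hapln2 (0.697, nearest 0.178), Cyp2j12 (0.0697, nearest 0) and Itih3 (0.0697, nearest 0). ONP IP replicate 6 stood above the rest for Crabp1 (0.366, nearest 0.072) and Slc18a3 (0.0731, nearest 0). Retina IP replicate 3 stood above the rest for Acsbg1 (5.47, nearest 0.976) and Vcan (5.08, nearest 1.96). Retina IP replicate 4 stood above the rest for Wnt7b (0.796, nearest 0.0576) and Timp1 (0.647, nearest 0.104). Retina IP replicate 5 stood above the rest for Opalin (0.518, nearest 0.174) and Egr1 (143, nearest 53.8). Retina IP replicate 6 stood above the rest for Crym (151, nearest 69.8) and Klf2 (0.129, nearest 0). ONP IP replicate 5 stood below the rest for Klk6 (236, nearest 882). Retina IP replicate 1 stood above the rest for Thbs2 (0.391, nearest 0.0647). Values under 1 CPM among these rest on few counts. ONP replicate 7 is the library sequenced with the retina, and leaving it out is described with the processing. Whether other cells, depth or batch set these libraries apart was not tested.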

How the results depend on the processing

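Of 138 called genes named in the text, none turned its direction in any fit tried. Genes named by rule had to keep their sign without the batch term and against ONP replicate 7 alone. For them these fits could not show a turn. Among all called genes 116 turned without the batch term and 29 against ONP replicate 7 alone. The adjusted p of 43 rose above 0.05 without ONP replicate 7, of 47 with batch 2 alone, of 17 in a test against a 2-fold change and of 12 with retina IP and ONP IP alone and a batch term. At most 4 were lost under each other setting. Genes higher in retina IP numbered 2116 and lower 3255. Counts were 4225 higher without the batch term on all IP libraries, 3875 higher without it on retina IP and ONP IP alone, 783 and 907 in batch 2 alone, and 788 and 1698 in a test against a 2-fold change. RLE size factors, no filter on low counts, DESeq2, limma-voom and all 26 libraries kept both counts within 1.5 times. Leaving out each library gave 567 to 2436 higher and 1588 to 3380 lower, the lowest without ONP replicate 7. Replicate numbers did not pair the samples: deviations of same-numbered libraries correlated at -0.107 to 0.068, and 1 of 6 correlated best with its own number. A replicate block on replicates 1 to 6 without a batch term gave 3788 higher, against 4289 for the same libraries with neither.

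Directions turned for genes that were not called. With limma-voom, Aldh1l1 was at -0.29. Without the batch term Sox9 was at 0.08, Aldh1l1 at -1.25 and Cox6c at 1.31, and on retina IP and ONP IP alone 0.08, -1.26 and 1.29. With those groups and a batch term Rps18 was at -0.19, in batch 2 alone at -0.02 and without ONH replicate 7 at -0.22. With retina replicates 2, 3 and 4 alone Sox9 was at 0.77 and S100b at 0.24, and with 1, 5 and 6 alone Aldh1l1 was at -1.30 and Rps18 at -0.14. With the replicate block Aldh1l1 was at -1.77, Slc1a3 at -0.38 and Cox6c at 2.14. Without the block those libraries gave -1.41, -0.14 and 2.14, and Sox9 at 0.15. Leaving out a library gave ranges of -0.52 to 0.28 for Sox9, -0.13 to 0.34 for Aldh1l1, -0.61 to 0.31 for Cox6c, -0.22 to 0.54 for Rps18 and -1.23 to 0.43 for S100b. Without ONP replicate 7 the batch term rests on ONH replicate 7 alone. Leaving out any other library kept both counts of called genes within 1.5 times. Batch 2 alone has ONP replicate 7 as its only ONP library. The causes of the changes under these and the other settings were not tested.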
